A study of Mus musculus with 7 samples.

Results

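The genes described here are 10 markers of adipose stem and progenitor cells, measured by RNA-Seq in mature white adipocytes of the mouse. They were Pdgfra, Pdgfrb, Dpp4, Pi16, Ly6a, Dcn, Lum, Gsn, Thy1 and Cd55, chosen by name, and each was found once among the 57010 gene identifiers of the count table. All 10 passed the filter on low counts and were among the 17039 genes tested. The question was whether they were higher together in Adipoq-F2-KO, with attention to those that adipocytes also express, such as Gsn. Of the 10 genes, 0 passed the test (edgeR, adjusted p under 0.05), where 0.798% of tested genes were called higher and 0.217% lower. The values of 9 leaned towards Adipoq-F2-KO (median log2 fold change 0.39), and 8 of the 10 were highest in the same knockout library, number 4. The genotypes did not overlap for Thy1 and Cd55, which were higher in Adipoq-F2-KO, and for Gsn, which was lower, where 8.86% and 8.72% of tested genes did not overlap in these directions. Gsn leaned the way the markers of adipocytes did.

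FFA2, encoded by Ffar2, is a receptor for short-chain fatty acids. FFA2 fl/fl mice carry floxed alleles of it, and Adipoq-F2-KO mice carry the same floxed alleles together with the Adiponectin-Cre transgene, which recombines them in cells that express adiponectin. There were 3 libraries of FFA2 fl/fl and 4 of Adipoq-F2-KO, each from mature adipocytes freed from perigonadal fat of male littermates by collagenase, at 20 weeks of age on chow. Ffar2 itself fell from a TMM-normalized level of 34.5 ± 2.77 (SD, n = 3) to 1.69 ± 0.634 CPM (n = 4), where CPM are counts scaled to an equal library size, and it was lower in every knockout library (log2 fold change -4.36, edgeR adjusted p = 8e-06, exact permutation p = 0.0286). Total counts lay between 30478997 and 39992605 per library. The adiponectin gene Adipoq, which defines the labelled cell type, averaged 3608 ± 155 CPM in the controls and 3087 ± 519 CPM in the knockouts (adjusted p = 0.386). Which cells the transcripts of the members came from was not measured.

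White fat holds, beside adipocytes, a stroma of fibroblast-like cells around its vessels, and some of these can become adipocytes. They carry the receptors PDGFRα and PDGFRβ for platelet-derived growth factors. An interstitial population marked by Dpp4 and Pi16 is held to give rise to more committed preadipocytes, and Ly6a (Sca-1), Thy1 and Cd55 are surface proteins used to sort such cells. Decorin (Dcn) and lumican (Lum) are small proteoglycans that bind collagen fibrils in the matrix around them. Gelsolin (Gsn) cuts and caps actin filaments, is made by many cell types and is abundant in fat cells. A mature adipocyte preparation is meant to leave the stroma behind, since fat-laden cells float and stromal cells sink.

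Promoters were read for the 3 members that the comparison turned on and for which RefSeq promoters of the assembly GRCm38.p6 were at hand. They are shown because Cd55 lay higher and Gsn lower in every knockout library than in any control, while Pdgfra stands for the members that were highest in a single knockout library. Each runs 5′ to 3′ on the strand of the gene, from 250 bases before the annotated start to 50 bases after it. Gsn has 3 annotated starts, which the counts per gene do not tell apart. Capitals mark matches to the TATA box TATAAA, the CCAAT box CCAAT, the GC box GGGCGG, the AP-1 motif TGANTCA or the TEAD motif GGAATG, searched on both strands, and no 2 matches overlap in these windows.
Cd55, chr1:130462695-130462994, minus strand: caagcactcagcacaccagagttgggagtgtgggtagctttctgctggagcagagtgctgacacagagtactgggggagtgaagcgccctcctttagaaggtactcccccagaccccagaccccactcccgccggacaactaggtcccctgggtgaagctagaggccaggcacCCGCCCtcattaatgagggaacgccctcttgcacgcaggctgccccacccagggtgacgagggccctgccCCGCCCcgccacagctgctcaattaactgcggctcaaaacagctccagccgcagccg
Gsn, chr2:35256109-35256408, plus strand: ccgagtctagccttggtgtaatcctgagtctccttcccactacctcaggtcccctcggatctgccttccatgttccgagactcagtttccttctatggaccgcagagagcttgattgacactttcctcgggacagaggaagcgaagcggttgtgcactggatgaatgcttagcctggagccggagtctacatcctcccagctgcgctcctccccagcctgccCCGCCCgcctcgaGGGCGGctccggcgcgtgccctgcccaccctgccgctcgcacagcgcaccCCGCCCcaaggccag
Gsn, chr2:35266494-35266793, plus strand: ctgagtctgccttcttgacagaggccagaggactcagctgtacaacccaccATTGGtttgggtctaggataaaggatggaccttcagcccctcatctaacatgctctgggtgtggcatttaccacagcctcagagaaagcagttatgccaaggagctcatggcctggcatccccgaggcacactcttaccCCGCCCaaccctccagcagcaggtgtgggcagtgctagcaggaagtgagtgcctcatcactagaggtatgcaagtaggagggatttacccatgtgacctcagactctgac
Gsn, chr2:35282130-35282429, plus strand: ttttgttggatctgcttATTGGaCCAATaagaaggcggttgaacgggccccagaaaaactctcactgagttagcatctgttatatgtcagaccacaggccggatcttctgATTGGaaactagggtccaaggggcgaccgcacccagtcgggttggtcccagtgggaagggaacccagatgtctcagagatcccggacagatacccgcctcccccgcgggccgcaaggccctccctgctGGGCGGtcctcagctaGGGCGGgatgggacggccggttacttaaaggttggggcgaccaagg
Pdgfra, chr5:75152001-75152300, plus strand: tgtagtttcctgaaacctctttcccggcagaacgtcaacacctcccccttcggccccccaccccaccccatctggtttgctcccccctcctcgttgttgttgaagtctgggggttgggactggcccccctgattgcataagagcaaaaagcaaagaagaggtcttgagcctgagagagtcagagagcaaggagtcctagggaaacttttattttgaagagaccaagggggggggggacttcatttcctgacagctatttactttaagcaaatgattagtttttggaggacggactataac
The Cd55 promoter held 2 GC boxes and no other match. The most upstream Gsn promoter held 3 GC boxes, the next 1 CCAAT box and 1 GC box, and the most downstream 3 CCAAT boxes and 2 GC boxes. The Pdgfra window held none of the 5 motifs. Among 32851 promoters of the same length, 35.7% held the GC box, 37.4% the CCAAT box, 13.6% the TATA box, 7.81% the AP-1 motif and 14.7% the TEAD motif, so GC and CCAAT boxes were common among all promoters. A match is a run of letters and not a measured site.

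Per kilobase of summed exon length, the highest member stood 16727-fold above the lowest in FFA2 fl/fl. Gsn stood at 4630 CPM per kilobase, above the 2613 of Adipoq, and took 0.909% to 1.52% of all counts of a library. Ly6a (36.7) and Dcn (35.3 CPM per kilobase) came next and did not differ beyond their spread. Pdgfrb (11.1) and Cd55 (3.86 CPM per kilobase) followed. Lum (2.44), Thy1 (1.50) and Pdgfra (1.03 CPM per kilobase) lay close together, with Thy1 overlapping both others. Pi16 (0.362) and Dpp4 (0.277 CPM per kilobase) were the lowest and overlapped each other. The 2 genes of the interstitial population were thus near the bottom of the list, at 44 to 102 counts per library, where most low counts were even, so that both mates of a pair appear to be counted and about 1 in 2 counts is a separate fragment.

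**Figure D1:**
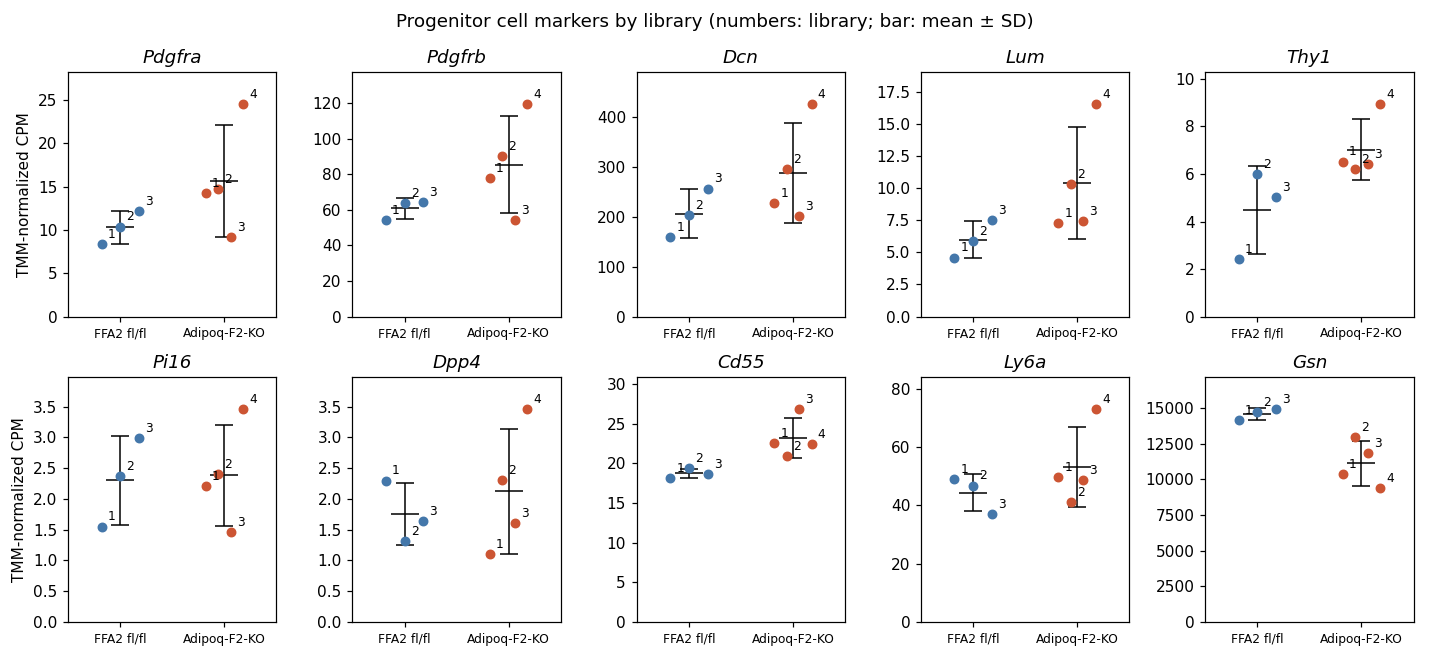
Level of each of the 10 markers in each library, in TMM-normalized CPM on linear axes from 0, with the 3 FFA2 fl/fl libraries in blue, the 4 Adipoq-F2-KO libraries in red, and bars for mean ± SD. In 8 panels Adipoq-F2-KO library 4 is the highest of all 7 points, and only Thy1, Cd55 and Gsn separate the genotypes.

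The receptors for platelet-derived growth factors were described first. Pdgfra (ENSMUSG00000029231, chromosome 5, 75312953 to 75358876 as deposited) stood at 8.33, 10.4 and 12.1 CPM in FFA2 fl/fl and at 14.3, 14.7, 9.13 and 24.6 CPM in Adipoq-F2-KO libraries 1 to 4. Knockout libraries 1, 2 and 4 lay above every control and library 3 lay among the controls. The means were 10.3 ± 1.90 (SD, n = 3) and 15.7 ± 6.45 CPM (SD, n = 4), and the log2 fold change was 0.61 (SE 0.27, 95% interval 0.00 to 1.21, edgeR adjusted p = 0.278). Without knockout library 4 the log2 fold change was 0.31.

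Pdgfrb (ENSMUSG00000024620, chromosome 18, 61178222 to 61218133) marks pericytes as well as progenitors. Its levels were 54.1, 63.9 and 64.4 CPM in FFA2 fl/fl and 78.0, 90.0, 54.0 and 119.6 CPM in Adipoq-F2-KO. The pattern was that of Pdgfra, with library 3 at the level of the lowest control and the other 3 above all controls. The log2 fold change was 0.49 (SE 0.21, 95% interval 0.03 to 0.95, edgeR adjusted p = 0.253), and 0.28 without knockout library 4. The ratio of Pdgfra to Pdgfrb within a library was 0.154 to 0.188 in FFA2 fl/fl and 0.163 to 0.205 in Adipoq-F2-KO, and these ranges overlapped (log2 difference 0.08, exact two-sided permutation p = 0.486).

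The ligands of these receptors showed no shared direction. All 4 ligand genes were tested, 3 had a positive and 1 a negative log2 fold change, and 0 were called by edgeR, DESeq2 or voom (0 at an unadjusted p under 0.05), with a median of 0.05. Pdgfb, which vessel cells release and which recruits pericytes, stood at 25.0 ± 1.68 CPM in FFA2 fl/fl and 26.7 ± 8.77 CPM in Adipoq-F2-KO (adjusted p = 0.868). Pdgfc was at 25.1 ± 4.83 and 22.5 ± 2.50 CPM (adjusted p = 0.604), and Pdgfd at 8.17 ± 0.564 and 9.10 ± 0.689 CPM (adjusted p = 0.614).

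Decorin and lumican stand next to each other. Dcn (ENSMUSG00000019929) lies on chromosome 10 at 97315471 to 97354005 and Lum (ENSMUSG00000036446) at 97400990 to 97408565, both on the plus strand and 46984 bases apart, followed by their relatives Kera and Epyc. Dcn was at 159, 203 and 256 CPM in FFA2 fl/fl and at 227, 295, 201 and 426 CPM in Adipoq-F2-KO. Libraries 2 and 4 of the knockout exceeded every control, and libraries 1 and 3 lay within the control range. The log2 fold change was 0.48 (SE 0.24, 95% interval -0.04 to 1.00, adjusted p = 0.320), and 0.22 without library 4.

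Lum had the largest log2 fold change of the members with all libraries in edgeR, while that of Thy1 was larger without knockout library 4 (0.51, against 0.48 for Lum), without control library 2, with voom and with a replicate block. Lum was at 4.59, 5.85 and 7.50 CPM in FFA2 fl/fl and at 7.30, 10.3, 7.41 and 16.6 CPM in Adipoq-F2-KO. Each knockout library exceeded the mean of the controls, but libraries 1 and 3 stayed just under the highest control. The means were 5.98 ± 1.46 and 10.4 ± 4.34 CPM, a log2 fold change of 0.80 (SE 0.29, 95% interval 0.16 to 1.44, edgeR adjusted p = 0.189). It was 0.48 without library 4.

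The balance between the pair leaned to Lum in Adipoq-F2-KO. The ratio of Dcn to Lum was 34.6, 34.8 and 34.2 in FFA2 fl/fl and 31.1, 28.6, 27.1 and 25.7 in Adipoq-F2-KO, with every knockout library under every control. The log2 difference was -0.26 with 0.5 CPM added to each gene (exact two-sided permutation p = 0.0571, 0.114 after adjustment over the 4 ratios tested), and -0.22 without library 4. The difference did not pass the threshold. The SD of this log2 ratio was 0.02 in the controls and 0.10 in the knockouts.

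Other small proteoglycans of the same kind were set beside them. Of 9, 6 were tested, with 3 higher and 3 lower (5 at an unadjusted p under 0.05, 3 of them higher), and Kera was at 0 in all libraries. Their summed level was lower in every knockout library than in any control, at 1873 to 2171 CPM in FFA2 fl/fl and 1320 to 1818 CPM in Adipoq-F2-KO. Bgn (biglycan), the closest relative of decorin, was at 124 to 165 CPM in FFA2 fl/fl and rose to 209 to 265 CPM in Adipoq-F2-KO (log2 fold change 0.60, edgeR adjusted p = 0.0479), a call that was lost when any 1 of the 7 libraries was left out (adjusted p 0.0520 without knockout library 4 to 0.241 without control library 1). Aspn (asporin) was at 7.93 ± 1.89 and 17.0 ± 6.96 CPM (log2 fold change 1.10, adjusted p = 0.0792). Prelp and Podn, named here after their values were seen, lay on the other side. Prelp, the most abundant of the list, was at 1581 ± 183 and 1139 ± 260 CPM without overlap (log2 fold change -0.47, adjusted p = 0.181), and Podn at 244 ± 10.2 and 206 ± 23.4 CPM (log2 fold change -0.24, adjusted p = 0.240).

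Neither Dpp4 nor Pi16, the members that mark the interstitial population, separated the genotypes. Dpp4 (ENSMUSG00000035000, chromosome 2, 62160417 to 62242575) encodes a cell-surface peptidase. It stood at 2.30, 1.31 and 1.64 CPM in FFA2 fl/fl and at 1.10, 2.31, 1.60 and 3.46 CPM in Adipoq-F2-KO. The lowest and the highest of the 7 values were both from knockout libraries. The log2 fold change was 0.27 (SE 0.42, 95% interval -0.65 to 1.19, adjusted p = 0.780) and -0.07 without library 4.

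Pi16 (ENSMUSG00000024011, chromosome 17, 29536654 to 29549567), a peptidase inhibitor that marks fibroblasts of many tissues, was at 1.55, 2.37 and 2.99 CPM in FFA2 fl/fl. In Adipoq-F2-KO it was at 2.21, 2.40, 1.47 and 3.46 CPM. The knockout libraries spanned the whole control range and passed it at both ends. The log2 fold change was 0.05 (SE 0.36, 95% interval -0.74 to 0.83, adjusted p = 0.964) and -0.18 without library 4. At 53 to 102 counts a library for Pi16, and 44 to 102 for Dpp4, a change in either direction was not detectable within these intervals.

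Relative to Pdgfra, Pi16 was lower in each knockout library. The ratio was 0.186, 0.228 and 0.246 in FFA2 fl/fl and 0.155, 0.163, 0.161 and 0.141 in Adipoq-F2-KO. The log2 difference, with 0.5 CPM added, was -0.49. Its exact two-sided permutation p of 0.0286 is the smallest that 3 against 4 libraries can give, and adjustment over the 4 ratios gave 0.114. Without library 4 the log2 difference was -0.41.

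**Figure D2:**
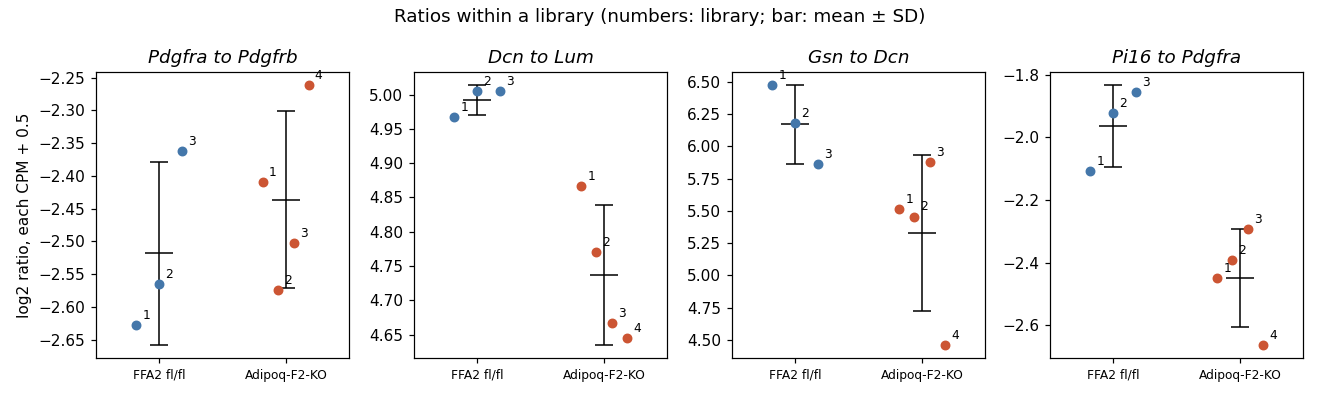
Ratio of 2 members within each library, on a log2 scale with 0.5 added to each normalized CPM, for FFA2 fl/fl (blue, n = 3) and Adipoq-F2-KO (red, n = 4), with bars for mean ± SD and separate vertical axes that do not start at 0. Dcn to Lum and Pi16 to Pdgfra separate the genotypes, and Pdgfra to Pdgfrb does not.

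Further genes of the same populations were counted. Of 10 further interstitial progenitor genes, 9 were tested, 6 with a positive and 3 with a negative log2 fold change. The median was 0.06, and 0.15 without knockout library 4, and 2 were at an unadjusted p under 0.05, both higher. Their summed level was higher in every knockout library than in any control, at 180 to 184 CPM in FFA2 fl/fl and 190 to 216 CPM in Adipoq-F2-KO. Ackr3, an atypical chemokine receptor, rose from 23.3 ± 2.85 to 35.9 ± 4.20 CPM (log2 fold change 0.62, edgeR adjusted p = 0.0477). With single libraries left out, Ackr3 stayed called without knockout library 4 (adjusted p = 0.0455) and not in the other 6 cases (up to 0.243 without control library 1). Cd248 was at 13.2 ± 2.92 and 20.0 ± 5.88 CPM (adjusted p = 0.217).

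All 8 committed preadipocyte genes were tested, 3 positive and 5 negative, with a median of -0.08, and 3 were at an unadjusted p under 0.05, 2 of them higher. Icam1, an adhesion molecule that marks these cells and is also induced in vessels and macrophages by inflammation, rose from 81.2 ± 23.2 to 182 ± 54.1 CPM (log2 fold change 1.16, edgeR adjusted p = 0.0464). Icam1 stayed called without knockout library 1 (adjusted p = 0.0456) and not when any other library was left out (0.0523 without knockout library 4, up to 0.241 without control library 1). Vcam1, its functional relative, was at 23.5 ± 6.38 and 38.4 ± 4.94 CPM (adjusted p = 0.0792). Zfp423, a transcription factor of preadipocytes that is named here after its values were seen, was lower in every knockout library than in any control, at 90.1 ± 8.44 and 72.1 ± 5.58 CPM (log2 fold change -0.32, adjusted p = 0.133). The 5 genes of F3+ stromal cells, held to restrain fat cell formation, all had a positive log2 fold change with a median of 0.29, and 0 were called by edgeR, DESeq2 or voom (0 at an unadjusted p under 0.05). Without knockout library 4, 4 of the 5 were positive and the median was 0.18. Gdf10 of that list was at 14.1 ± 1.61 and 17.3 ± 5.59 CPM (adjusted p = 0.535), Mgp at 10.2 ± 1.02 and 13.4 ± 4.52 CPM (adjusted p = 0.401) and F3 at 141 ± 19.7 and 154 ± 24.4 CPM (adjusted p = 0.681).

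The sorting antigens behaved in different ways. Ly6a (ENSMUSG00000075602, chromosome 15, 74866726 to 74869880), also carried by endothelial cells, was at 49.0, 46.8 and 37.0 CPM in FFA2 fl/fl and at 49.7, 41.2, 48.7 and 73.0 CPM in Adipoq-F2-KO. Apart from library 4, the knockout libraries lay within or just above the control range. The log2 fold change was 0.26 (SE 0.18, 95% interval -0.13 to 0.65, adjusted p = 0.468), and 0.07 without library 4. Ly6a has close relatives in the genome that may share reads. Ly6c1, which endothelial cells also carry, was likewise highest in library 4 (137 CPM, against 79.6 to 98.7 CPM in the other 6 libraries), and Ly6e was at 323 ± 16.3 and 325 ± 35.9 CPM.

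Thy1 (ENSMUSG00000032011, chromosome 9, 43954681 to 43959876), a lipid-anchored glycoprotein of fibroblasts, T cells and neurons, was at 2.40, 6.00 and 5.04 CPM in FFA2 fl/fl and at 6.52, 6.20, 6.42 and 8.95 CPM in Adipoq-F2-KO. Every knockout library exceeded every control, though library 2 exceeded the highest control by only a small step. The means were 4.48 ± 1.86 and 7.02 ± 1.30 CPM, a log2 fold change of 0.65 (SE 0.29, 95% interval 0.02 to 1.28, edgeR adjusted p = 0.270). Control library 1 was the lowest of all 7, and without it the log2 fold change was 0.34. Library 4 stood apart from the other knockout libraries.

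Cd55 (ENSMUSG00000026399, chromosome 1, 130366764 to 130390481) encodes decay-accelerating factor, which shields cells from complement. It was at 18.2, 19.4 and 18.6 CPM in FFA2 fl/fl and at 22.5, 20.9, 26.9 and 22.5 CPM in Adipoq-F2-KO. The genotypes did not overlap, and the highest value came from library 3, the library in which Pdgfra, Pdgfrb, Pi16 and Dcn were at their knockout lowest. The means were 18.7 ± 0.606 and 23.2 ± 2.56 CPM, a log2 fold change of 0.31 (SE 0.12, 95% interval 0.05 to 0.56, edgeR adjusted p = 0.201), and 0.32 without library 4. The related gene Cd55b, which may share reads with it, was at 0.205 to 0.227 CPM in FFA2 fl/fl and 0.251 to 0.911 CPM in Adipoq-F2-KO (adjusted p = 0.385), far under Cd55 in every library. The control values of Cd55b lay just above the 0.150 to 0.197 CPM that a count of 0 allows.

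Gsn (ENSMUSG00000026879, chromosome 2, 35146392 to 35197904) was the exception in direction. It was at 14154, 14752 and 14944 CPM in FFA2 fl/fl and at 10372, 12962, 11841 and 9396 CPM in Adipoq-F2-KO. Every knockout library lay under every control, and library 4, highest for 8 other members, was the lowest. The means were 14617 ± 412 and 11143 ± 1575 CPM, a log2 fold change of -0.39 (SE 0.12, 95% interval -0.65 to -0.13, edgeR adjusted p = 0.124), and -0.32 without library 4. DESeq2 called it lower (adjusted p = 0.0191), where 0.708% of 28515 genes were called lower and 2.41% higher, the latter with 0 members among them. Voom called 0 members.

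Set against Dcn in the same library, Gsn was at 89.1, 72.6 and 58.3 times its level in FFA2 fl/fl and at 45.7, 43.9, 59.1 and 22.1 times in Adipoq-F2-KO. Library 3 of the knockout lay just above the lowest control, and the other 3 lay below all controls. The log2 difference was -0.84 (exact two-sided permutation p = 0.0857, 0.114 after adjustment), and -0.56 without library 4.

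**Figure D3:**
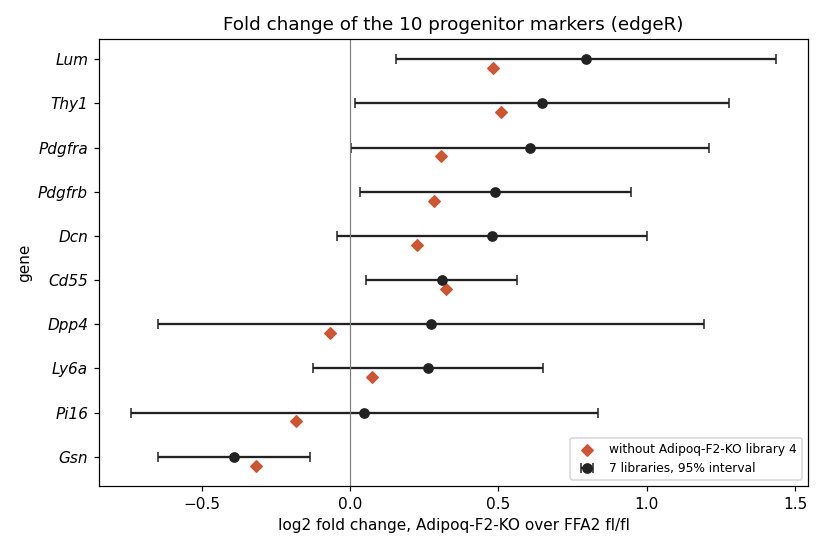
Log2 fold change of each marker, Adipoq-F2-KO over FFA2 fl/fl, from edgeR on all 7 libraries (black circles with 95% intervals) and without Adipoq-F2-KO library 4 (red diamonds). Lum is at 0.80 and Gsn at -0.39 with all libraries, and without library 4 Dpp4 and Pi16 pass to the left of 0.

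Counted together, the members leaned one way with 1 exception, Gsn. At unadjusted p under 0.05 there were 6 members, 5 of them higher (Pdgfra, Pdgfrb, Lum, Thy1 and Cd55) and 1 lower (Gsn), against 17.9% of tested genes. A positive log2 fold change was found for 9 members against 50.4% of tested genes, and the median over the members was 0.39 against 0.00 over all tested genes. Without knockout library 4, 7 members had a positive log2 fold change and the median was 0.25. When every gene with at least 1 count was tested, edgeR called 4 members higher (Pdgfra, adjusted p = 0.0276, Pdgfrb, 0.00732, Dcn, 0.0152, and Lum, 0.00911), at a background of 3.76% of 28515 genes called higher.

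Libraries of 1 genotype differed widely in the members. Relative to the control mean on the log2 scale with 0.5 CPM added, the median over the 10 members was -0.22, 0.04 and 0.16 in the control libraries and 0.22, 0.43, -0.04 and 0.91 in the knockout libraries. Knockout library 3 was thus at the level of the controls, and library 4 held the highest values. Among the knockout libraries, the level in library 4 over the mean of the other 3 was 2.07-fold for Dpp4, 1.98-fold for Lum, 1.93-fold for Pdgfra, 1.77-fold for Dcn, 1.71-fold for Pi16 and 1.62-fold for Pdgfrb. It was 1.57-fold for Ly6a and 1.40-fold for Thy1, but 0.959-fold for Cd55 and 0.801-fold for Gsn, beside 0.731-fold for Adipoq.

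Pdgfra, Pdgfrb, Pi16 and Dcn shared 1 order of libraries, from lowest to highest 1, 2, 3 among the controls and 3, 1, 2, 4 among the knockouts. This order was picked after the values were seen, as the commonest among the members, so its share does not test them. It was found in 258 of the tested genes, or 1.51%. Among the other genes listed for comparison it was held by the fibroblast gene Fbn1 (fibrillin), by Gdf10, by the mesothelial gene Lrrn4 and by the proteoglycan Ogn. These orders describe 7 libraries and come from single samples.

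Markers of other cell types were also high in library 4. In these bulk libraries fewer cells of a type and less RNA per cell cannot be told apart. All 12 endothelial markers had a positive log2 fold change (median 0.49, 0.32 without library 4). Of these 9 were at an unadjusted p under 0.05, 0 were called by edgeR or voom and 4 by DESeq2, and their summed level was 1111 to 1477 CPM in FFA2 fl/fl, 1492 to 1767 CPM in knockout libraries 1 to 3 and 2547 CPM in library 4. The 12 mural cell markers, which share Pdgfrb's cells, had 7 positive and 5 negative values (2 at an unadjusted p under 0.05, 0 called), with sums of 1331 to 1515 CPM, 1444 to 1590 CPM and 2023 CPM. Mcam, the most abundant mural marker, did not follow that sum. It was at 649 to 752 CPM in FFA2 fl/fl and 586 to 690 CPM in Adipoq-F2-KO, lowest in library 4 (log2 fold change -0.15, edgeR adjusted p = 0.433). Of 12 macrophage markers, 11 had a positive value, 10 were at an unadjusted p under 0.05, and DESeq2 called 6. By edgeR 2 were called (Cd68, log2 fold change 0.72, adjusted p = 0.0416, and Lyz2, 0.69, adjusted p = 0.0383). The macrophage sums were 360 to 437 CPM in FFA2 fl/fl, 532 to 573 CPM in knockout libraries 1 to 3 and 632 CPM in library 4. Every knockout library was thus above every control, and the median was 0.54, and 0.50 without library 4. The calls of Cd68 and Lyz2 were both lost without control library 1 (adjusted p = 0.227 for Cd68 and 0.201 for Lyz2). In all 7 cases of a library left out Cd68 stayed called 1 time, without control library 2, and Lyz2 3 times, without control library 2 or knockout library 1 or 4. The 5 erythroid markers were all positive (median 0.59). Their sums were 97.6 to 223 CPM in FFA2 fl/fl, 209 to 239 CPM in knockout libraries 1 to 3 and 372 CPM in library 4. No gene of these 4 lists was at 0 in all libraries. Their part in the values of the members was not tested.

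The broader set of fibroblast genes was followed with 21 general fibroblast genes. Of these 16 had a positive and 5 a negative log2 fold change, and 10 were at an unadjusted p under 0.05, 9 of them higher. None was called by edgeR or voom and 4 were by DESeq2. The genotypes did not overlap for 6 that were higher and 1 that was lower, where 8.86% and 8.72% of tested genes did so. Their median was 0.24, and 0.29 without library 4, so in contrast to the 10 members the value did not shrink when that library was left out. Their summed level was 2444 to 2791 CPM in FFA2 fl/fl. It was 3052 to 3170 CPM in knockout libraries 1 to 3 and 2754 CPM in library 4. The median log2 difference from the control mean was 0.40 in library 4, against 0.27 to 0.35 in knockout libraries 1 to 3. Fbn1, the main protein of microfibrils, was at 21.3 to 40.7 CPM in FFA2 fl/fl and 41.9 to 90.5 CPM in Adipoq-F2-KO (log2 fold change 1.13, adjusted p = 0.0626). Cd34, a sialomucin of progenitors and endothelium, was at 40.6 ± 4.41 and 71.4 ± 26.0 CPM (log2 fold change 0.81, edgeR adjusted p = 0.0980). Without library 4 its log2 fold change was 0.52 (edgeR adjusted p = 0.0422), in a run that called 136 of 16643 genes higher. Col3a1, a fibrillar collagen, was at 535 ± 125 and 713 ± 61.8 CPM (log2 fold change 0.41, adjusted p = 0.184), with every knockout library above every control.

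**Figure D4:**
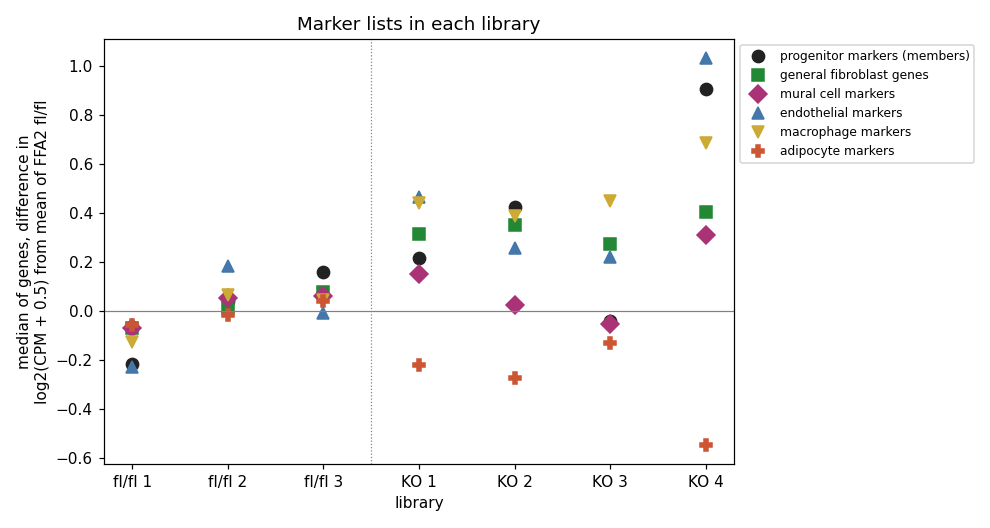
Median over the genes of each marker list in each library, as the difference in log2 (normalized CPM + 0.5) from the mean of the 3 FFA2 fl/fl libraries. The 10 progenitor markers (black circles) lie at -0.04 in Adipoq-F2-KO library 3 and at 0.91 in library 4, and the adipocyte markers (red crosses) are under 0 in all 4 knockout libraries.

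Gsn leaned with the adipocyte markers. All 12 adipocyte markers had a negative log2 fold change (median -0.30, and -0.22 without library 4). Of these 5 were at an unadjusted p under 0.05, and 0 were called by edgeR or voom and 2 by DESeq2. The genotypes did not overlap for 4 of them, all lower, where 8.72% of tested genes were lower without overlap. Their summed level was 45814 to 51096 CPM in FFA2 fl/fl, 42038 to 46420 CPM in knockout libraries 1 to 3 and 35300 CPM in library 4. Cfd (adipsin), the most abundant of them, was at 13847 ± 1857 and 11100 ± 1563 CPM (adjusted p = 0.236), a level like that of Gsn. When the libraries were scaled to the adipocyte markers instead, the median of all tested genes moved to 0.29, the members' median to 0.71 and Gsn to -0.11. Under that scaling the genotypes no longer separated for Gsn. The whole table moved with it, and 0.704% of tested genes were lower without overlap, against 8.72% in the main run. The log2 fold change of Gsn minus the median of all tested genes was then -0.40. With the same scaling 4 members were higher without overlap, as were 3916 of the 17039 tested genes.

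Markers of tissues outside the fat pad were unevenly spread. The epididymal epithelium markers, with Lcn5 at 0 in all libraries, summed to 0.00 to 2.70 CPM in FFA2 fl/fl and reached 16.6 CPM in knockout library 3. The male germ cell markers summed to at most 2.47 CPM in FFA2 fl/fl and reached 118 CPM in knockout library 2. The 9 mesothelial markers, of which 7 were tested, summed to 10.9 to 26.2 CPM and 7.58 to 12.2 CPM, and the T and B cell markers, of which 8 of 13 were tested, to 3.04 to 25.5 CPM and 4.06 to 15.1 CPM. Schwann cell markers, with Foxd3 at 0, were at most 2.42 CPM in FFA2 fl/fl and 4.61 CPM in knockout library 4. Genes of the mitochondrial chromosome took 4.41% to 5.77% of counts in FFA2 fl/fl and 6.61% to 10.3% in Adipoq-F2-KO, with library 4 the highest. The gene ENSMUSG00000119584 also took its largest share in library 4 (6.76%, against 0.619% to 3.75% in the others). Their part in the values of the members was not tested.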

How the data were processed

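Poly-A RNA of mature adipocytes was sequenced from both ends in stranded libraries. Trimming (Trimmomatic), alignment (STAR) and counting (featureCounts) were done by the authors. The deposited values are raw counts per gene. Options of the counting, and whether strand was used, are not given in the sources used here. The submitters' processing notes name GRCm38, but the deposited coordinates differ from that build and are printed only as deposited. Of 57010 identifiers, 52029 matched a symbol, and all 7 columns of counts were used.

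Counts were filtered with filterByExpr, normalized by TMM (factors 0.968 to 1.02) and tested with the two-sided quasi-likelihood test of edgeR 4.0.16 (R 4.3.3), with genotype as the only term and Benjamini-Hochberg adjustment over all tested genes. The common coefficient of biological variation came to 0.258. Standard errors came from the F statistic. DESeq2 1.42.0, limma 3.58.1 (voom), other scalings and filters, a replicate block and leaving out each library were alternatives. A count of 0 allows 0.150 to 0.197 CPM (3 fragments, or 6 counts), for counting error only. Libraries of 1 genotype differed by more than sampling noise in each pair (chi-square divided by its degrees of freedom, 22.7 to 92.6).

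The members and the comparison lists were chosen with earlier results of these data known. All members, Ffar2 and Adipoq are named, and from the other lists the called genes or else the most abundant, and from lists of related genes also the 2 with the smallest p. The labels number the samples within a genotype and do not say whether each came from 1 mouse, so p-values measure the spread between these samples.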

Additional observations from a re-analysis of the deposited data

Results flagged for a closer look

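The levels of single genes and the summed levels of marker lists, 34 in all, were searched for 1 library far from the others among the 4 of Adipoq-F2-KO, and 4 had one. The rule is meant to give about 1 in 20 by chance. That rate was not measured for these values, so 4 of 34 is not read as an excess. Thy1 was at 8.95 CPM in library 4, against 6.20 to 6.52 CPM in the other 3. The summed Schwann cell markers were at 4.61 CPM in library 4, the epididymal epithelium markers at 16.6 CPM in library 3 and the male germ cell markers at 118 CPM in library 2.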

How the results depend on the processing

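Halving the counts left Dpp4 at 0.27 and Pi16 at 0.05. The direction of Dpp4 and Pi16 was reversed with a replicate block (log2 fold change -0.087 and -0.16). Same-numbered libraries did not clearly deviate together (correlations 0.0743, -0.0264 and -0.0404), and control libraries 2 and 3 correlated better with another number. With so few libraries and such small correlations, these values cannot show whether same-numbered samples shared more than a number. Leaving out single libraries gave -0.067 to 0.52 for Dpp4, negative without knockout library 4, and -0.18 to 0.29 for Pi16, negative without knockout library 4 or control library 1. The other 8 members kept their direction in every alternative run. The members' median was 0.25 with the block and 0.25 to 0.51 with single libraries left out, lowest without knockout library 4. It was 0.71 with the adipocyte scaling, where Gsn was at -0.11 and the median of all tested genes at 0.29.

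DESeq2 called 1 member lower, and testing all genes with at least 1 count called 4 members higher. Scaling to the adipocyte markers left 4 members that did not overlap and were higher, and 0 that were lower, against 3916 and 120 of the 17039 tested genes. With single libraries left out, 2 to 4 members did not overlap and were higher (4 without knockout library 3), against 10.7% to 14.7% of all tested genes (13.3% without knockout library 3). The cause was not tested. Over all tested genes, 136 were called higher and 37 lower, against 686 and 202 by DESeq2, 1071 and 332 with at least 1 count, 223 and 49 with at least 1 CPM in 3 libraries, 430 and 9 with the adipocyte scaling and 191 and 33 with the block. Leaving out single libraries gave 0 to 151 called higher and 1 to 30 called lower. Of 356 values recomputed under alternatives, 324 were rated the same. Fold changes, ratios and medians so rated kept their direction and their side of the threshold or stayed within their spread. Counts so rated only had to stay of similar size, as with 203 genes called higher from halved counts against 136.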
